A study of Glycyrrhiza uralensis with 30 samples.

Results

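The 300 genes described here are abundant in seedlings of *Glycyrrhiza uralensis*, a licorice. As group means, they took a similar share of the measured RNA in shoots and roots during 24 h of simulated drought. They were chosen from the measured values among 34445 listed genes. The level of a gene in a group was the mean of log2(TPM + 1) over its 3 libraries, where TPM is a transcript abundance corrected for length, as a share of its library's total. A gene was taken when its lowest level over the 10 groups was at least 5, which corresponds to 31 TPM, and when its highest and lowest levels differed by at most 0.7, a 1.62-fold difference. Of the 2432 genes that met the level limit, 331 (13.6%) met the second limit as well, and the 300 with the smallest range were kept. Small differences between groups are therefore what the list was made of and are given below as a description.

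Stems and leaves formed the aboveground groups and roots the underground groups, 5 of each, at 0, 2, 6, 12 and 24 h, with 3 libraries in every group and 30 in all. The treated groups received polyethylene glycol 6000 (PEG 6000) at 100 g/L in nutrient solution, an osmotic agent that lowers the water available to roots. The 0 h groups served as controls and are labelled as distilled water, so a comparison with 0 h covers the PEG, the medium and the elapsed time together. All plants carry an age label of 60 days, and the protocol gives 1 week of hydroponic growth before treatment. Libraries are named by the numbers in their titles, 31 to 33 for the controls and 1 to 12 for the treated groups, and the same numbers occur in both parts. Whether replicate libraries stem from different plants is not stated, so the spread between them, and every interval or call built on it, may be technical.

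Genes whose RNA keeps a similar level across organs and treatments serve as reference genes in quantitative PCR, where the level of a gene of interest is given relative to them. Genes for actin, tubulin, ubiquitin, translation elongation factors and phosphatase subunits are commonly tried in plants, and many of them vary with organ or stress. Reference genes matter for a drought series in particular, because water loss can change the whole RNA pool and with it the share that any single transcript takes. The files give identifiers without gene names, and no annotation was used here, so none of the 300 steady genes is assigned a function or matched to the common reference genes. The labelled organs could not be checked against named marker genes for the same reason.

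Summed over all genes, the libraries held 928931 to 972586 TPM, and read depth is unknown. In aboveground libraries 18959 to 21776 genes reached 1 TPM, and in underground libraries 19906 to 20876 did. Aboveground library 11 of 24 h stood apart with the fewest such genes, with 11.7% of its summed TPM in its 10 most abundant genes, the highest share among aboveground libraries, and with the lowest scaling factor of the 30 libraries by median ratios (log2 -0.64, where the others lay between -0.27 and 0.26). Genes at least 3 higher aboveground on the log2 scale had a median level of 0.79 to 1.77 in underground libraries, with the 2 highest medians in library 3 of 2 h (1.77) and library 6 of 6 h (1.60). With both of these left out, 336 genes met the limits in place of 331, and 282 of the 300 genes were among them. In the other direction, genes at least 3 higher underground had a median level of 0.44 to 2.11 in aboveground libraries, highest in library 3 of 2 h (2.11) and library 4 of 6 h (2.08) and lowest in library 11 of 24 h (0.44). Without library 3 of 2 h 320 genes met the limits, and without library 4 of 6 h 317 did. The part of either list in the results below was not tested further.

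The steady genes lay toward the lower end of the abundant ones. Their mean level over the 10 groups ran from 5.22 to 8.65 on the log2(TPM + 1) scale with a median of 5.89, and the other 2132 abundant genes had a first quartile of 6.03 and a median of 6.59 and reached 13.2. In TPM the steady genes averaged between 36.5 and 408, with a median of 59.1. The least abundant of them still lay above 87.8% of all listed genes. Of the 300, 163 had a mean level between 5 and 6, 101 between 6 and 7, 27 between 7 and 8, and 9 between 8 and 9.

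Among all abundant genes, the share that stayed within 0.7 was lower at higher mean levels. It was 27.3% of 662 genes with a mean level between 5 and 6, 10.9% of 993 between 6 and 7, 6.08% of 510 between 7 and 8, 4.55% of 198 between 8 and 9, and 2.90% of 69 above that. The level limit applies to the lowest group, so genes of low mean level that vary widely could not enter the count, and these shares are not comparable without that in mind. The ranges of the steady genes went from 0.24 to 0.68 with a median of 0.56, and those of the other abundant genes had a median of 1.33.

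**Figure D1:**
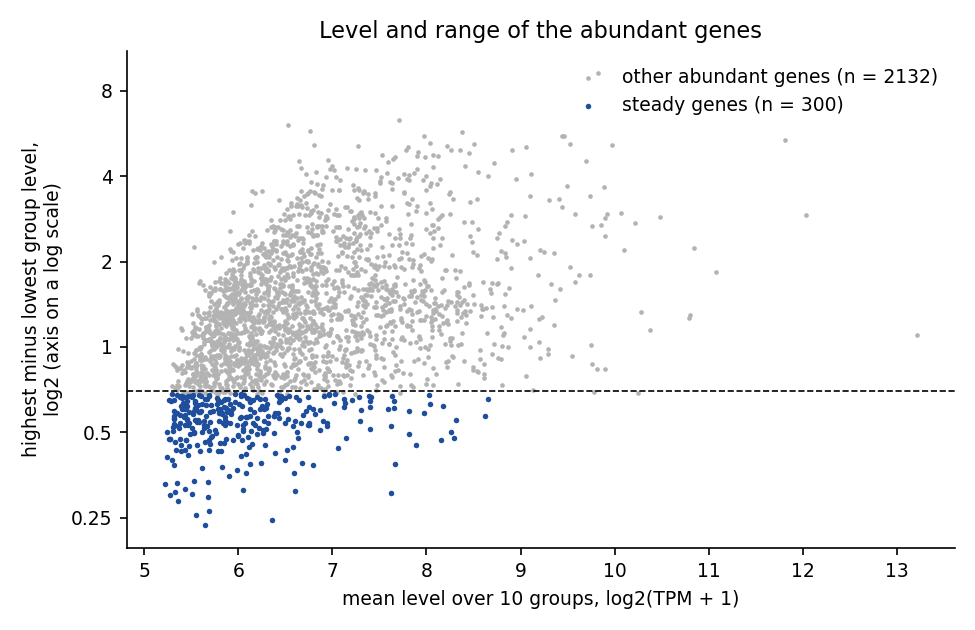
Each point is 1 of the 2432 abundant genes, placed by its mean level over the 10 groups (horizontal, log2(TPM + 1)) and by its highest minus lowest group level (vertical, log2, on a log scale). The dashed line is the limit of 0.7; the 300 steady genes are blue, and the 31 genes under the line that were left out by the limit of 300 are gray like the rest.

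Fewer abundant genes stayed within 0.7 over both organs than within a single organ. A range over 10 groups cannot be smaller than one over 5 of them, so this order was fixed in advance. Of the 2432 abundant genes, 1329 (54.6%) stayed within 0.7 over the 5 aboveground groups, 1487 (61.1%) over the 5 underground groups, and 1005 (41.3%) in each part taken alone. Of these 1005, 331 (32.9%) also stayed within 0.7 with both parts pooled. The steady genes had a median range of 0.36 aboveground and 0.37 underground, against 0.64 and 0.60 for all abundant genes.

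At the edges of the list, genes inside and outside differed little. Glyur000208s00014293 had the largest range kept, 0.68253, with levels from 5.06 in aboveground 24 h to 5.74 in underground 12 h. The next gene by range, Glyur000791s00032232, stood at 0.68257 and was left out by the limit of 300. The last gene within 0.7 was Glyur000223s00013824 (0.69993) and the first over it Glyur000016s00003043 (0.70106). At the level limit, Glyur000124s00011967 had its lowest level at 5.006 in underground 0 h and was kept. Glyur000002s00000343, with a range of 0.60, had its lowest level at 4.993 in aboveground 24 h and was not.

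Glyur000062s00005499 had the smallest range of all abundant genes, 0.24. Its aboveground values, in TPM, were 45.00, 44.91 and 55.20 in the 3 controls, 54.78, 38.67 and 47.98 after 2 h, 47.92, 43.96 and 45.58 after 6 h, 47.90, 47.71 and 54.42 after 12 h, and 38.76, 39.69 and 61.92 after 24 h. Its underground values were 55.34, 55.11 and 45.72 in the controls, 48.37, 44.01 and 45.76 after 2 h, 51.38, 58.33 and 52.40 after 6 h, 55.44, 51.29 and 55.17 after 12 h, and 39.96, 51.59 and 53.09 after 24 h. Most groups overlapped, but the underground libraries of 6 and 12 h all lay above those of aboveground 6 h and underground 2 h. The widest scatter was among the aboveground libraries of 24 h, which held both the highest value and 2 of the 3 lowest. Its highest library stood 1.60-fold above its lowest, although in TPM its highest group mean was at 54.04 ± 3.75 TPM (SD, n = 3, underground 6 h) and its lowest at 45.82 ± 1.99 TPM (SD, n = 3, aboveground 6 h). The second smallest range, 0.25, belonged to Glyur000583s00027216, whose group means lay between 74.03 ± 20.01 TPM in aboveground 2 h and 86.3 ± 9.72 TPM in underground 24 h (SD, n = 3).

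Glyur000081s00006792 and Glyur000802s00023719 were the most abundant of the steady genes, at 408 and 399 TPM on average, and varied in different ways. Glyur000081s00006792 was higher underground. Its aboveground values, in TPM, were 310.58, 322.11 and 354.49 in the controls, 352.33, 317.97 and 431.32 after 2 h, 369.31, 279.96 and 321.32 after 6 h, 386.64, 345.32 and 324.01 after 12 h, and 435.44, 362.49 and 397.41 after 24 h. Its underground values were 527.68, 453.95 and 352.26 in the controls, 479.50, 471.53 and 418.47 after 2 h, 449.31, 419.29 and 441.30 after 6 h, 502.12, 433.77 and 437.40 after 12 h, and 571.39, 533.94 and 427.46 after 24 h. The groups of the 2 parts overlapped at 0, 2 and 24 h and were apart at 6 and 12 h.

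Glyur000802s00023719 was highest at 6 h and lowest at 24 h in both parts, by group level. Its aboveground values, in TPM, were 342.21, 404.95 and 388.40 in the controls, 423.32, 392.90 and 375.98 after 2 h, 503.38, 500.77 and 457.85 after 6 h, 366.99, 447.66 and 437.15 after 12 h, and 293.57, 288.33 and 414.52 after 24 h. Underground it was at 459.45, 439.01 and 444.17 in the controls, 354.54, 341.51 and 302.32 after 2 h, 511.35, 430.18 and 463.82 after 6 h, 420.60, 394.08 and 373.07 after 12 h, and 310.98, 336.37 and 347.95 after 24 h. In both parts the 3 libraries of 6 h lay above those of 2 h and of 24 h without overlap. After rescaling by median ratios its range was 0.83 in place of 0.57, and with quantile normalization 0.82, so that it was outside the limit of 0.7 under both.

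The gene with the smallest spread between libraries of a group, Glyur000178s00013196, was highest at 12 h in both parts and lowest at 24 h aboveground and at 2 h underground. Its pooled SD within groups was 0.10 on the log2 scale. Aboveground means, in TPM ± SD of 3 libraries, were 103 ± 11.2 in the controls, 102 ± 5.25 after 2 h, 117 ± 4.17 after 6 h, 131 ± 8.12 after 12 h and 88.9 ± 1.94 after 24 h. Underground means were 116 ± 10.7 in the controls, 84.9 ± 4.29 after 2 h, 117 ± 5.43 after 6 h, 122 ± 11.5 after 12 h and 97.8 ± 9.03 after 24 h. Its range of 0.62 was thus larger than its spread, and its libraries at 12 h lay above those at 2 and 24 h without overlap in both parts. At the other end, Glyur000009s00001488 had the largest spread of the list, 0.44, with 45.12, 67.38 and 20.17 TPM in the aboveground controls and 31.12, 31.08 and 62.05 TPM in aboveground 24 h. Its group means nevertheless stayed within 0.55, and its highest library stood 3.58-fold above its lowest.

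**Figure D2:**
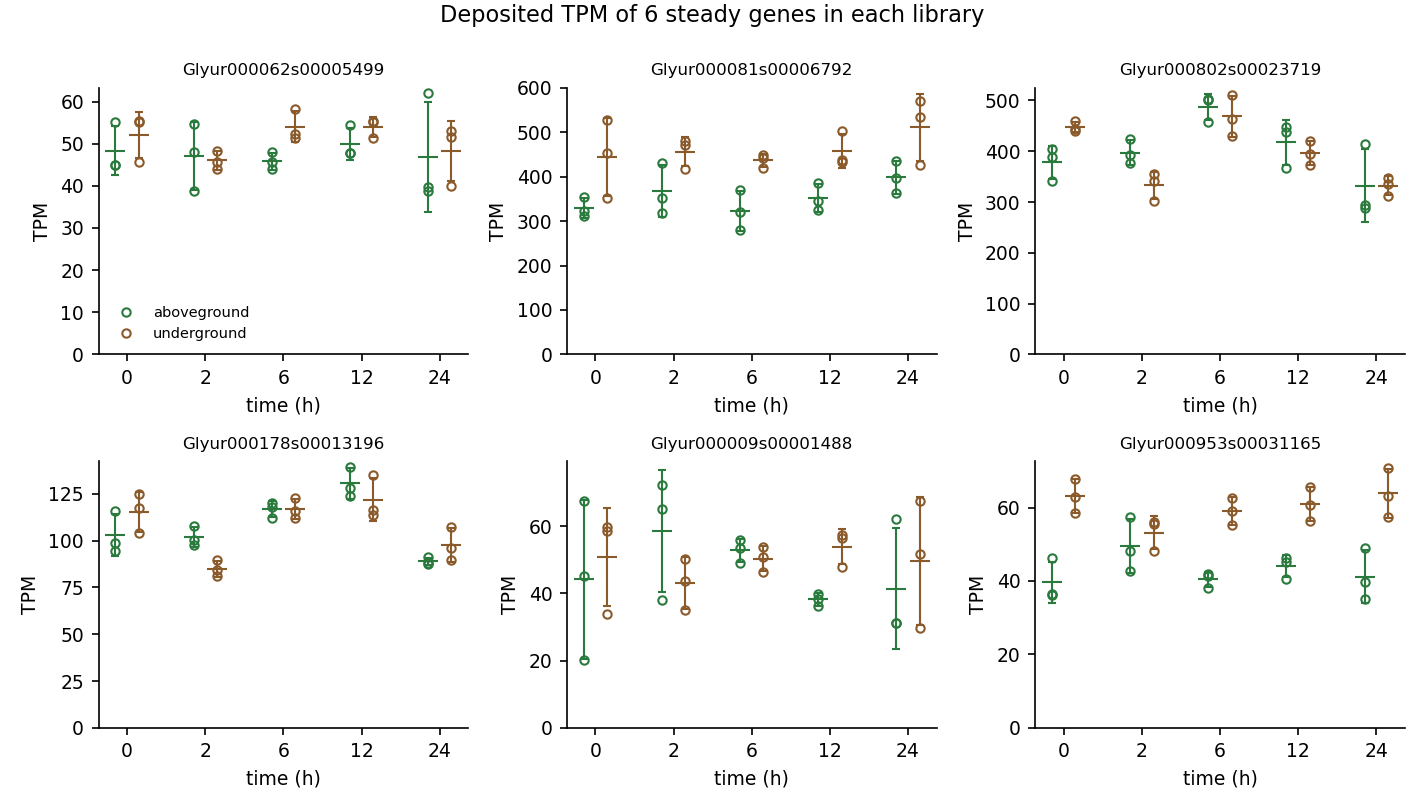
Deposited TPM (vertical, from 0) of 6 steady genes at 0, 2, 6, 12 and 24 h (horizontal), with open circles for single libraries and bars for the mean ± SD of 3 libraries, aboveground in green and underground in brown. Most groups of Glyur000062s00005499 overlap, Glyur000802s00023719 and Glyur000178s00013196 differ by time, and Glyur000081s00006792 and Glyur000953s00031165 have higher means underground.

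The spread between libraries of a group was not part of the rule, although a small spread makes a small range more likely. The pooled SD within the 10 groups had a median of 0.20 over the 300 steady genes, from 0.10 to 0.44, and 12 genes were above 0.35. Over the other abundant genes, whose mean level was higher, the median was 0.30. For 132 steady genes (44%) the highest of the 30 libraries was less than 2-fold above the lowest, which was so for 14 (0.66%) of the 2132 other abundant genes. The fold over all libraries includes the differences between groups that the rule limited. This contrast is therefore partly set by the choice of genes. The median steady gene had a 2.03-fold difference between its highest and lowest library, and 1 gene exceeded 4-fold.

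Splitting each gene's sum of squares over the 30 libraries gave a different make-up for the steady genes. In the median steady gene 49.4% of it lay between libraries of a group, 16.7% between times, 9.10% between parts and 11.7% in the combination of part and time. In the median other abundant gene these shares were 24.4%, 16.2%, 37.2% and 10.2%. The rule itself limits the differences between groups, so the larger share between libraries follows from the choice of genes.

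Libraries that a choice did not use show how far genes chosen by such limits stay within them. When genes were chosen by the same 2 limits on 2 libraries of each group, and the left-out library of each group was then looked at, the 10 left-out libraries differed more than the limit for most genes. With the first library of each group left out, 285 genes were chosen, their left-out libraries had a median range of 0.80, and 101 genes (35.4%) stayed within 0.7 there. With the second left out, 387 genes were chosen with a median range of 0.98, and 62 (16.0%) stayed within 0.7. With the third left out, 190 genes were chosen with a median of 0.73, and 87 (45.8%) stayed within it. Single libraries scatter more than means of 3, so the wider limit of 2-fold was counted as well. It was kept by 75.1%, 53.7% and 80.5% of the chosen genes, and by 26.7%, 16.2% and 26.9% of all genes that met the level limit on the same libraries. The second libraries by number include aboveground library 11 of 24 h.

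The precision of the differences was described by their intervals. For each gene 13 differences between groups were estimated with limma, 4 times against 0 h in each part and the 2 parts at each of 5 times, with 95% intervals. For 245 of the 300 genes all 13 intervals lay within 2-fold in either direction, and the median half-width of an interval was between 0.37 and 0.40 on the log2 scale. The genes were chosen for small differences between the same group means, so these intervals are centred too close to 0, their nominal coverage does not hold, and the count of 245 is partly set by the choice. The largest bound of any interval was 0.55 for Glyur000583s00027216 and 0.57 for Glyur000062s00005499. It was 1.33 for Glyur000009s00001488, and the highest in the list was 1.39, in another gene.

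Within each part, the times of highest and lowest level were divided among the steady genes. Aboveground, 97 of the 300 had their highest level at 12 h and 101 their lowest at 24 h. These counts within a part were not repeated without aboveground library 11 of 24 h. Over all 10 groups, leaving it out changed the genes lowest in aboveground 24 h from 78 to 24. Underground, 94 had their highest level at 24 h, 110 their lowest at 0 h and 98 their lowest at 2 h. Median-ratio scaling turned several of these counts. Aboveground 12 h was then highest for 9 genes and lowest for 118, and aboveground 24 h highest for 115 and lowest for 16. Underground 2 h was highest for 122 and lowest for 32, while underground 0 h stayed the time most often lowest, with 113 genes. The course over the 5 times in 1 part and the course in the other had a median Pearson r of 0.15 across the 300 genes, with 187 (62.3%) above 0, and a median of 0.32 across the other abundant genes, with 66.3% above 0. After median-ratio scaling the medians were 0.32 and 0.37, with 71.7% and 69.6% above 0, and after quantile normalization 0.24 and 0.36. These correlations run over 5 group means of a gene, and describe these libraries only.

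Over both parts, the highest level was more often underground and the lowest more often aboveground. The highest group was an underground one for 218 of the 300 genes (72.7%), most often underground 24 h with 72 genes, followed by underground 12 h with 42. The lowest group was an aboveground one for 212 genes (70.7%), most often aboveground 24 h with 78 genes and the aboveground controls with 53. Library 11 bore on the first of these counts. Without it 24 genes were lowest in aboveground 24 h, while 63 were lowest in the aboveground controls, 199 in any aboveground group, and 212 were highest in any underground group. After median-ratio rescaling the order turned, with 80 genes highest in an underground group and 107 lowest in an aboveground one.

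**Figure D3:**
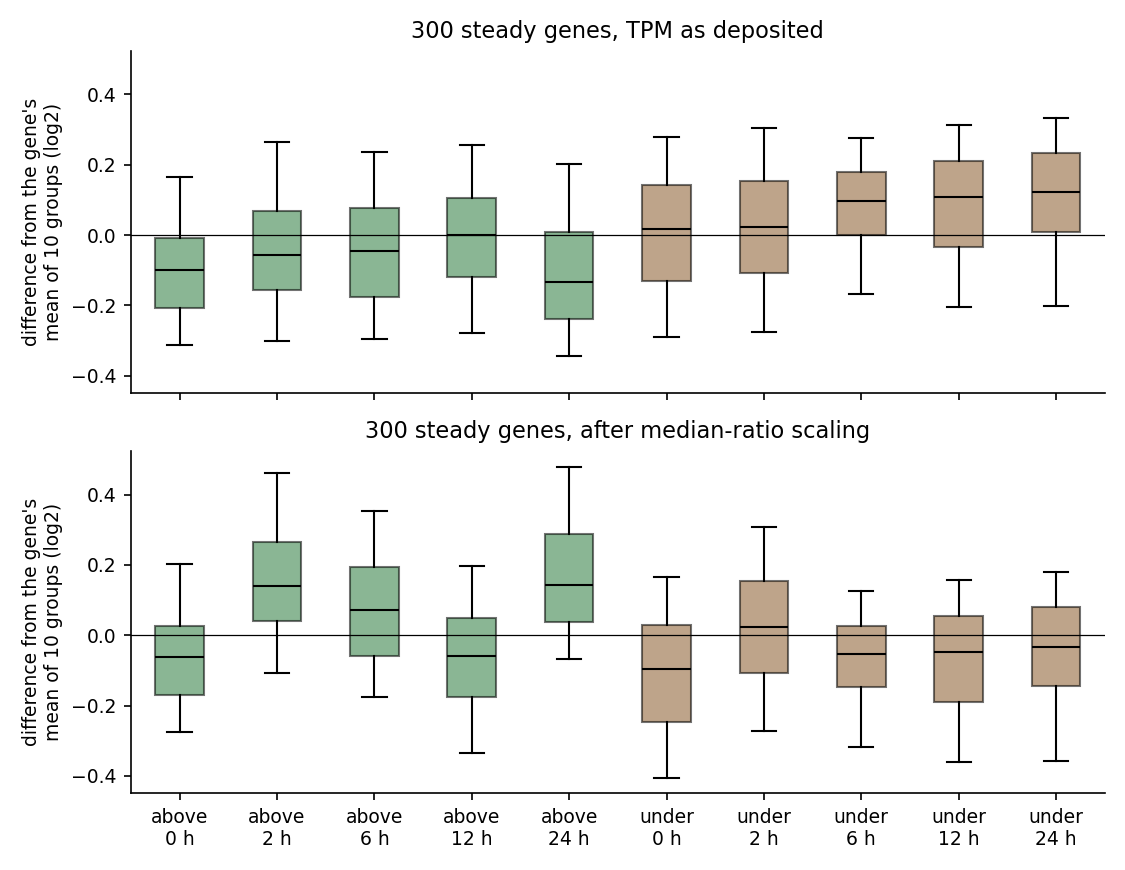
For each of the 10 groups, the boxes show the difference of the 300 steady genes from their own mean over the groups (vertical, log2), with the median, the quartiles and whiskers from the 5th to the 95th percentile. With TPM as deposited (top) underground groups lie higher, and after median-ratio scaling (bottom) aboveground 2 h and 24 h do.

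Median-ratio scaling turned the direction of most of these small shifts, and quantile normalization kept it between the parts. As deposited, the median over the 300 genes of the aboveground minus underground level was -0.11, -0.06, -0.14, -0.10 and -0.23 for 0, 2, 6, 12 and 24 h in this order. Over all 25420 genes tested the medians were -0.10, -0.13, -0.19, -0.04 and -0.32 at these times. Median-ratio scaling, which sets the median gene to about 0, moved the medians of the steady genes to 0.04, 0.13, 0.13, -0.0020 and 0.20. With quantile normalization they were -0.07, -0.04, -0.06, -0.04 and -0.09. At 24 h without library 11 the deposited median was -0.14. At 24 h the steady genes were therefore 0.23 lower aboveground than underground as TPM, where the median of all genes was -0.32. After median-ratio scaling the steady genes were 0.20 higher, and no rescaled median without library 11 is given.

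The scaling bore on the comparisons with 0 h as well. Aboveground, the median of the steady genes as deposited was 0.05, 0.05, 0.09 and -0.01 for 2, 6, 12 and 24 h in this order, where the medians of all 23541 genes tested were -0.15, -0.07, 0.10 and -0.18. After median-ratio scaling the steady genes stood at 0.21, 0.13, -0.0034 and 0.23, and after quantile normalization at -0.0011, 0.0082, 0.04 and 0.0020. Underground, their medians in the same order were 0.01, 0.08, 0.07 and 0.12 as deposited, and 0.13, 0.04, 0.03 and 0.08 after median-ratio scaling. Quantile normalization gave -0.02, 0.02, 0.02 and 0.05. Without library 11 the aboveground median at 24 h was 0.07 as deposited. These comparisons share their 0 h libraries within a part.

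Together the 300 genes held 2.07% to 2.57% of the summed TPM in aboveground libraries and 2.43% to 2.95% in underground ones. The group means went from 2.33% ± 0.25 in aboveground 24 h and 2.34% ± 0.064 in the aboveground controls to 2.79% ± 0.14 in underground 24 h (SD, n = 3). None of the 300 was among the 10 most abundant genes of any library. The median deviation of the 300 genes in a library from their own means, a factor that would scale the libraries to these genes, lay between -0.33 and 0.19 on the log2 scale. The lowest value was that of aboveground library 11, in which 222 of the 300 genes were within 0.5 of their mean, against 260 to 299 in the other 29 libraries. The part that this library's composition has in the position of aboveground 24 h was not tested beyond leaving it out. In RNA from whole organs, fewer cells of a type and less RNA per cell cannot be told apart.

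**Figure D4:**
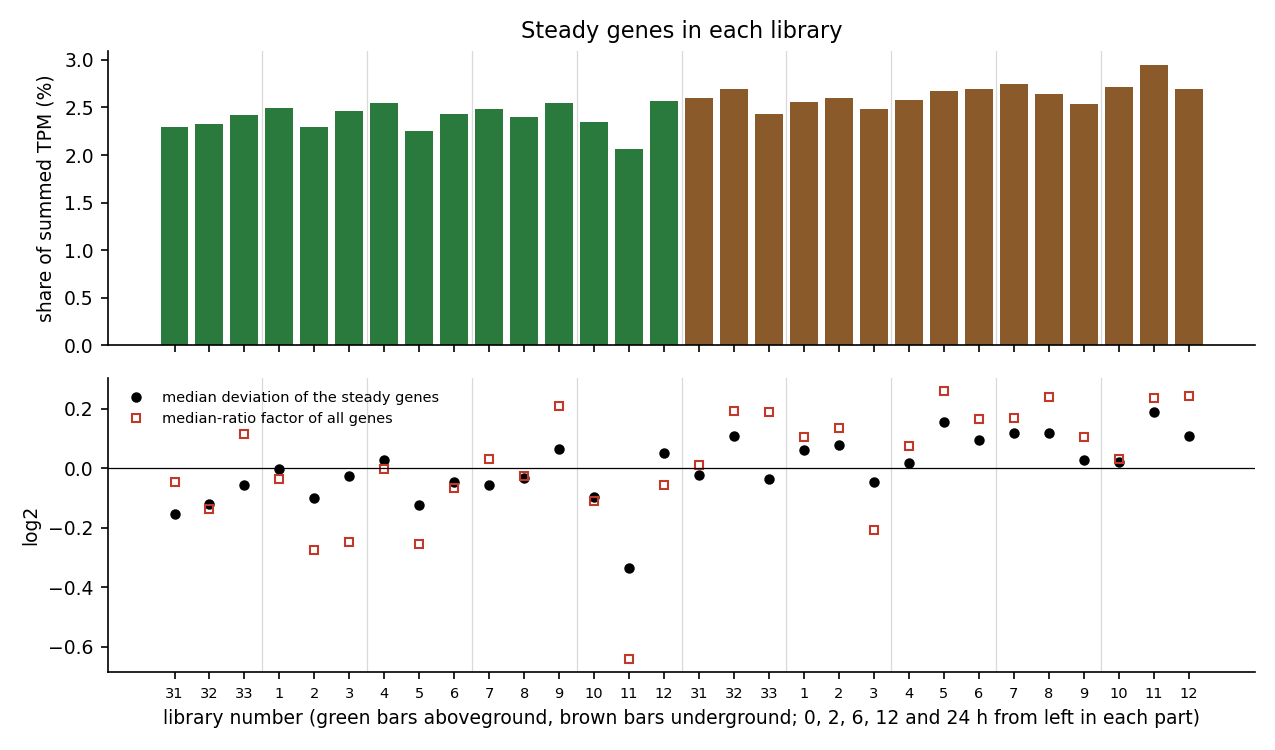
Each position is 1 of the 30 libraries, in order of part and time. Bars (top) give the percentage of summed TPM held by the 300 steady genes, from 2.07% in aboveground library 11 to 2.95% in underground library 11; points (bottom) give the median log2 deviation of the steady genes (filled) and the median-ratio factor of all genes (squares), both lowest in aboveground library 11.

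Apart from the pseudocount, ratios between steady genes do not change when a library is multiplied by a single factor, as in median-ratio scaling. Quantile normalization is not such a factor and can change them. The SD over 30 libraries of the log2 ratio of a gene to each of the other 299, averaged over them, is called pairwise variation in work on reference genes. It ran from 0.27 to 0.48 with a median of 0.32. Glyur000343s00025700 had the smallest value, 0.266, with 38.84, 37.42 and 40.91 TPM in the aboveground controls, 33.57, 28.38 and 38.74 TPM in aboveground 24 h and 46.47, 46.12 and 45.17 TPM in underground 2 h, its lowest and highest groups by level being the last 2. Glyur000062s00005499, first by range, was close to it at 0.269, and Glyur000009s00001488 was at 0.46.

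The scaling also decided which genes counted as steady. With median-ratio scaling 513 genes met the 2 limits in place of 331, and 205 of the 300 (68.3%) were among them. Of the other 95, 88 had a range over 0.7 and 17 a lowest level under 5, some of them both, while 4 had a range over 1. With quantile normalization 418 genes met the limits, 282 of the 300 among them. 202 of the 300 met them with the values as deposited, rescaled and quantile normalized. Among these, Glyur000055s00004582 had the smallest range in the least favourable of the 3, a choice made after the values were seen. Its range was 0.36 as deposited, 0.29 after median-ratio scaling and 0.30 after quantile normalization, and its libraries lay between 44.3 and 81.3 TPM. The lowest of them was aboveground library 11.

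Calls between groups are given as counts only, because the rule used the same group means. Over the 4 times against 0 h, limma's F test at a Benjamini-Hochberg adjusted p under 0.05 called 4 of the 300 genes aboveground and 5 underground, where 22.1% and 13.1% of all genes tested were called. No gene was called in both parts. Other scalings raised the counts, to 24 aboveground and 12 underground with median ratios, to 12 and 13 with quantile normalization, and to 11 and 14 with scaling by the steady genes. Among all genes tested, median ratios called 5170 of 23619 aboveground and 3190 of 22906 underground. Quantile normalization called 5552 of 23445 and 3307 of 23188, and scaling by the steady genes 5688 of 23610 and 3266 of 23009. With no filter on low values 8 and 10 of the 300 were called, and 9 underground with a filter of 5 TPM. These filters called 4896 of 28693 and 2724 of 28698 genes, and 3107 of 18189 underground. The 4 aboveground calls became 0 with limma without trend (9 genes at an unadjusted p under 0.05) and 0 without library 3 of 2 h (19 genes unadjusted). They became 1 without library 2 of 2 h, 4, 5 or 6 of 6 h, 8 or 9 of 12 h, 10 of 24 h or control 31, and 2 without control 33. The 5 underground calls became 1 with limma without trend, 2 without library 2 of 2 h or control 31, 3 without library 3 of 2 h, 5 or 6 of 6 h, 7, 8 or 9 of 12 h or control 32, and 9 without library 12 of 24 h. Among all genes, limma without trend called 5044 of 23541 aboveground and 2652 of 23107 underground. Leaving out a library gave 4406 to 5382 calls aboveground and 2184 to 3704 underground. Glyur000040s00007398, chosen after the values were seen for the smallest adjusted p aboveground, averaged 49.3 ± 4.29 TPM in the controls, 74.6 ± 7.89 TPM after 2 h and 47.8 ± 2.55 TPM after 6 h (SD, n = 3). Its underground group means lay between 67.8 and 71.8 TPM. Glyur000748s00025530, chosen likewise underground, averaged, in TPM ± SD of 3 libraries, 53.8 ± 1.10 in the controls, 35.9 ± 3.72 after 2 h, 49.6 ± 4.96 after 6 h, 48.6 ± 2.97 after 12 h and 35.9 ± 4.00 after 24 h.

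Between the parts at 0 h, limma called 34 of the 300 genes, 4 higher aboveground and 30 higher underground, where 16.9% and 19.7% of all genes were called in these directions and 36.6% in either. The count became 10 without aboveground control 31, with 2 higher aboveground and 8 higher underground, and 22 without underground control 32, with 10 and 12. Without these controls 7862 of 25350 and 7956 of 25357 of all genes were called. Without underground control 31, 19 were higher underground, and without aboveground library 12 of 24 h, 7 were higher aboveground. Among all genes, 8201 of 25361 and 9410 of 25350 were then called in either direction. Scaling turned the balance of directions, to 22 higher aboveground and 6 higher underground with median ratios and to 22 and 11 with scaling by the steady genes, while quantile normalization gave 15 and 32. In either direction the calls among all genes were 9329 of 25356, 9391 of 25396 and 9955 of 25400, in this order. How all genes divided by direction at 0 h was not counted under these scalings or with libraries left out. With only the 6 control libraries in the fit 6 were called, all higher underground, and 0 higher aboveground (6 genes at an unadjusted p under 0.05). That fit called 7670 of 21825 genes tested.

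Averaged over the 5 times, 124 of the 300 genes were called between the parts, 13 higher aboveground and 111 higher underground, where the shares of all genes were 64.8% in either direction, 25.5% and 39.3%. Median-ratio scaling turned the balance to 98 higher aboveground and 11 higher underground, quantile normalization gave 32 and 85, and scaling by the steady genes themselves 55 and 47. In either direction these scalings called 16004 of 25356, 16581 of 25400 and 16187 of 25396 of all genes, in this order. How all genes divided by direction was not counted under them. The called differences had a median of 0.24 for the 13 and -0.27 for the 111 on the log2 scale. Glyur000212s00017531 had the largest difference aboveground, 0.31 (95% interval 0.12 to 0.50), with 58.39, 50.91 and 43.14 TPM in the aboveground controls and 33.39, 38.75 and 23.81 TPM in the underground ones. Glyur000953s00031165 had the largest underground, -0.48 (95% interval -0.61 to -0.35). It averaged 39.6 ± 5.68 TPM in the aboveground and 63.1 ± 4.65 TPM in the underground controls, and 41.2 ± 7.09 against 63.9 ± 6.70 TPM at 24 h (SD, n = 3). The parts did not overlap in this gene at 0, 6, 12 and 24 h and overlapped at 2 h. Both genes were picked as extremes of these differences, in a list limited by the same group means. Their intervals therefore do not keep their nominal coverage. Under the alternatives tried both genes kept their direction and their call. Those alternatives refit the same values and add no independent support.

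**Figure D5:**
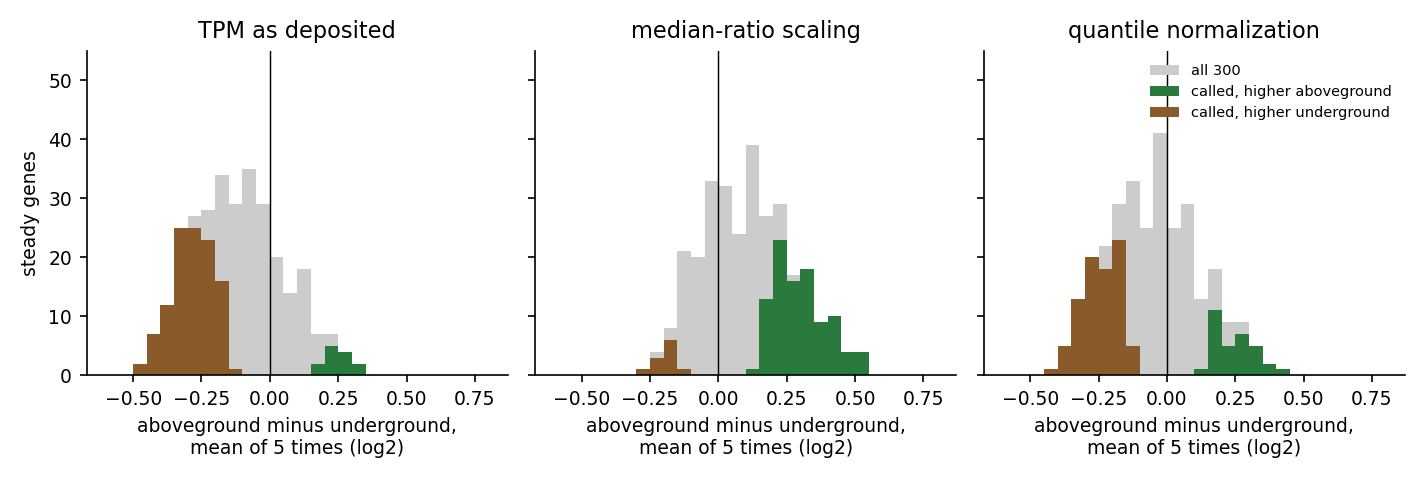
Histograms of the aboveground minus underground difference averaged over 5 times (horizontal, log2) for the 300 steady genes (vertical, number of genes), under 3 ways of scaling. Calls higher aboveground are green and higher underground brown, 13 and 111 as deposited, 98 and 11 after median-ratio scaling, and 32 and 85 after quantile normalization.

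Of the 300 genes, 166 were called neither over the times in a part, nor between the parts at 0 h, nor between the parts averaged over the times. The share of all genes called in none of these comparisons is not given here, and the rule limited the same group means. The 166 is therefore a count without a reference. That a gene was not called does not show that it did not differ.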

How the data were processed

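RNA of 30 libraries was sequenced, and each library has its own table of TPM values as the authors deposited them, per the file headers. Tools listed in the submitters' processing notes, with neither role nor version, are edgeR, DESeq2, RSEM, StringTie, HISAT2 and fastp. The genome build is not given in the sources used here, nor is the annotation. TPM keeps no depth, so no counting interval is given, and near-identical gene copies may share reads.

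Levels are log2(TPM + 1) of the deposited values, and differences are on that scale, which understates those of low genes. limma 3.58.1 in R 4.3.3 (trend, Benjamini-Hochberg adjustment, threshold 0.05) was fitted to every gene that reached 1 TPM in 3 or more libraries: 15 libraries of a part for times, 30 for parts. The fits and the rule were tested on simulated data. Median ratios used genes above 0 in every library. The genes and all lists were chosen with earlier results of these data known, and gene lists by name could not be applied. Named genes are those at the extremes of range, level, spread, part difference and pairwise variation, and at the limits. Other settings were pseudocount 0.1, other filters, scalings and limits, no trend, a library-number block and leaving out libraries. Member scaling, leaving out doubted libraries and alternatives for intervals, library factors and time courses were added after the data were seen. Figures used matplotlib 3.10.9.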

Additional observations from a re-analysis of the deposited data

How the results depend on the processing

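The count of genes within both limits, 331 as reported, was 513 with median-ratio scaling, 825 and 101 with a level limit of 4 and 6, and 85 and 855 with a range limit of 0.5 and 1. It ran from 190 to 406 when libraries were left out, lowest without the third library of every group and highest without aboveground library 11 of 24 h. Of the 300 genes called over the times aboveground (4) and underground (5), there were 8 and 10 with no filter, 24 and 12 with median-ratio scaling, 12 and 13 with quantile normalization, 11 and 14 with scaling by the steady genes, 0 and 1 without trend, and 9 underground with the filter of 5 TPM; leaving out a library gave 0 to 6 and 2 to 9. Between the parts at 0 h (34, with 4 higher aboveground and 30 higher underground), 6 were called with only the 6 libraries compared (0 and 6), and leaving out a library gave 10 to 41 in all, 2 to 10 higher aboveground and 8 to 35 higher underground. In the 2 directions median-ratio scaling gave 22 and 6 and scaling by the steady genes 22 and 11; quantile normalization gave 15 higher aboveground. Averaged over the times (13 higher aboveground and 111 higher underground), the counts were 98 and 11 with median-ratio scaling and 55 and 47 with scaling by the steady genes, and 32 were higher aboveground with quantile normalization. The cause of these changes was not tested. Calls among all genes under the scalings are given with the results above. Leaving out a library gave 7862 to 9696 calls among all genes between the parts at 0 h, in either direction. The median share of summed TPM held by the 300 genes was 2.54%, and 2.77% with the 10 most abundant genes of each library left out of the total. The 245 genes with all intervals within 2-fold were 207 to 263 under the alternatives, and the spread and pairwise variation moved by less than their SD over genes.

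With the library number as a replicate block, 41 genes were called between the parts at 0 h, 8 of them higher aboveground, and 130 averaged over the times. The block also raised the calls among all 25420 genes tested, from 9294 to 9983 at 0 h and from 16468 to 17263 averaged over the times. How all genes divided by direction was not counted with it. Same-numbered libraries of the parts deviated together, with correlations across genes of 0.097 to 0.35 over 15 pairs, 14 of them above 0.1. Over 30 pairs of other numbers they were -0.25 to 0.026. Deviations were taken from group means and sum to 0 within a group. Values of the other-number pairs are therefore tied to those of the same-number pairs and are no separate contrast. The labels do not say what a number stands for, so the same-number correlations are a hint from the data. Read depth is unknown and limits low values to an unknown extent.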
